A study of Homo sapiens with 12 samples.

Results

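The genes described are 32 genes of the unfolded protein response and of protein folding in the endoplasmic reticulum (ER), out of 58381 genes counted, in prostate cancer cells that were given or deprived of testosterone (T). The genes were chosen by symbol for their roles, with no measured value in the rule but with earlier results of these data known, and all 32 were found once each and passed the filter on low counts that left 19162 genes to test. Poly(A) RNA was sequenced from VCaP-T and VCaP-CT, lines made from VCaP, a human prostate cancer cell line with a TMPRSS2-ERG fusion. VCaP-T was adapted to a T-rich medium, and VCaP-CT was grown out of VCaP-T by long culture at a castrate level of T. Each is 1 line, all medium held serum stripped of its own steroids, and the labels give passage 84 for VCaP-T and passage 73 for VCaP-CT. The 4 groups, with 3 libraries each, were VCaP-CT switched to 10 nM T for 48 h (rechallenged VCaP-CT), VCaP-CT at its usual 0.1 nM T, VCaP-T switched to 0.1 nM T for 48 h (depleted VCaP-T), and VCaP-T at its usual 10 nM T. Whether the 3 libraries of a group came from separate cultures is not stated, so each p-value measures the spread between libraries, which may be technical.

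Proteins bound for the cell surface or for secretion enter the ER through a channel, are folded there by chaperones and by enzymes that form disulfide bonds, and are sent out for destruction when they fail to fold. When unfolded protein builds up, 3 sensors in the ER membrane, the products of ERN1 (IRE1), ATF6 and EIF2AK3 (PERK), switch on the unfolded protein response. IRE1 splices XBP1 mRNA so that it makes an active transcription factor, ATF6 is cut to release another, and PERK slows translation through eIF2 alpha. XBP1 and ATF6 raise the transcription of chaperones such as HSPA5 (BiP) and of ER degradation genes. Prostate luminal cells are secretory and release kallikreins such as PSA. The counts used here are per gene and cannot tell the spliced form of XBP1 mRNA from the unspliced one, and poly(A) RNA says nothing of whether the sensors are active.

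The libraries held 30174831 to 40825204 counted fragments. Luminal and VCaP marker genes (KLK3, KLK2, TMPRSS2, ERG, HOXB13, FOXA1, KRT8, KRT18, EPCAM) had at least 1692 fragments in every library. IGKC of plasma cells was at 0 in all 12 libraries, and KRT5 of basal cells, PTPRC of leukocytes, COL1A2 of fibroblasts and JCHAIN of plasma cells had at most 5. Other markers of such cells were present at low levels: KRT14 had 51 to 210 fragments, MZB1 of plasma cells 31 to 194, COL1A1 13 to 482, PDGFRB of stromal cells 10 to 118, and the endothelial genes PECAM1 34 to 143 and VWF 235 to 547. Their part in the results was not tested. KLK3, which codes for PSA, had 12089 to 14110 fragments in rechallenged VCaP-CT, 1692 to 1931 in VCaP-CT at 0.1 nM T, 35478 to 44182 in depleted VCaP-T and 75285 to 84995 in VCaP-T at 10 nM T, so that none of the 4 groups overlapped. Depleted VCaP-T replicate 2 stood apart: its log2 values correlated with those of the other replicates of its group at 0.965 and 0.970 over the genes tested, against at least 0.993 for every other pair of replicates. Its differences from them went in part with exon length, as its levels by exon length show, and results that use depleted VCaP-T are given with and without this library. Leaving it out changed the counts of called genes in every comparison, also in those that do not use it.

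Of the 32 genes, 24 had their lowest mean level in VCaP-CT at 0.1 nM T, 5 in depleted VCaP-T and 3 in VCaP-T at 10 nM T. The share of all genes tested that was lowest in each group was not counted, so whether this is particular to the 32 was not tested. The model was edgeR's quasi-likelihood test on the counts, and a gene is said to have changed when its adjusted p was under 0.01 over all genes tested. The spread was estimated over all 12 libraries, so a p-value in a comparison without depleted VCaP-T also carries the spread of that group. On rechallenge of VCaP-CT, 18 of the 32 genes rose and 0 fell, while 7.07% of all genes tested rose and 7.19% fell. With 1 of the 3 VCaP-CT libraries at 0.1 nM T left out, whichever it was, 10 genes rose, without rechallenged replicate 1 it was 11, and without depleted VCaP-T replicate 2 it was 26, while 19.0% of all genes then rose. Over all genes 1354 rose with all libraries. With 1 VCaP-CT library at 0.1 nM T left out it was 799 to 843, and without rechallenged replicate 1 it was 851. None of the 32 was below an unadjusted p of 0.05 in the falling direction, and DESeq2 also called 0 falling. The median log2 fold change was 0.55 over the 32 genes and -0.02 over all genes tested. Between the lines in their usual media (VCaP-CT at 0.1 nM T over VCaP-T at 10 nM T), 16 of the 32 were lower, 1 was higher and the median was -0.52, while 15.7% of all genes were lower, 14.8% were higher and their median was 8e-04. Without depleted VCaP-T replicate 2, 27 were lower and 3 higher, while 26.7% of all genes were lower and 26.7% higher. Line and T level differ together in that comparison and cannot be told apart in it.

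On depletion of VCaP-T for 48 h, 8 of the 32 genes fell and 0 rose, while 3.83% of all genes fell and 6.15% rose. The median log2 fold change on depletion was -0.33 over the 32 genes and 0.04 over all genes tested. In the rising direction 2 of the 32 had an unadjusted p under 0.05, and DESeq2 called 1 as risen and 13 as fallen. Without depleted VCaP-T replicate 2, edgeR called 23 as fallen and 1, XBP1, as risen, while 12.6% of all genes fell and 14.4% rose. Fitted on the 6 VCaP-T libraries alone, edgeR called 0 of the 32 in either direction, while it called 81 of all genes as fallen and 202 as risen. Of the 32, 15 were falling and 1 rising at an unadjusted p under 0.05 in that fit. The cause was not tested.

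The 8 genes that fell on depletion were DNAJC3, EDEM1, EIF2AK3, ERO1A, HYOU1, PDIA4, PDIA6 and SYVN1, and without replicate 2 their log2 fold changes lay between -0.58 for HYOU1 and -0.40 for PDIA6. All 8 also rose on rechallenge and were lower between the lines. Depletion and the comparison of lines share the VCaP-T libraries at 10 nM T, and rechallenge and the comparison of lines share the VCaP-CT libraries at 0.1 nM T, so these calls are not independent of each other. In all, 14 genes rose on rechallenge and were lower between the lines. The share of all genes tested with these joint patterns was not counted. Whether the patterns are particular to the genes described was therefore not tested. CANX, PDIA3, PDIA5 and SSR1 rose on rechallenge with no call between the lines, and CRELD2 and DNAJB9 were lower between the lines with no call on rechallenge. With depleted replicate 2 left out, CANX and PDIA3 were also lower and PDIA5 higher between the lines, and CRELD2 and DNAJB9 also rose on rechallenge. ATF6, CREB3, CREB3L2, EDEM3, ERN1, SDF2L1, SEC61B and SEL1L were called in no pairwise comparison, but without depleted replicate 2 all of these except ATF6 were called in at least 1.

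**Figure D1:**
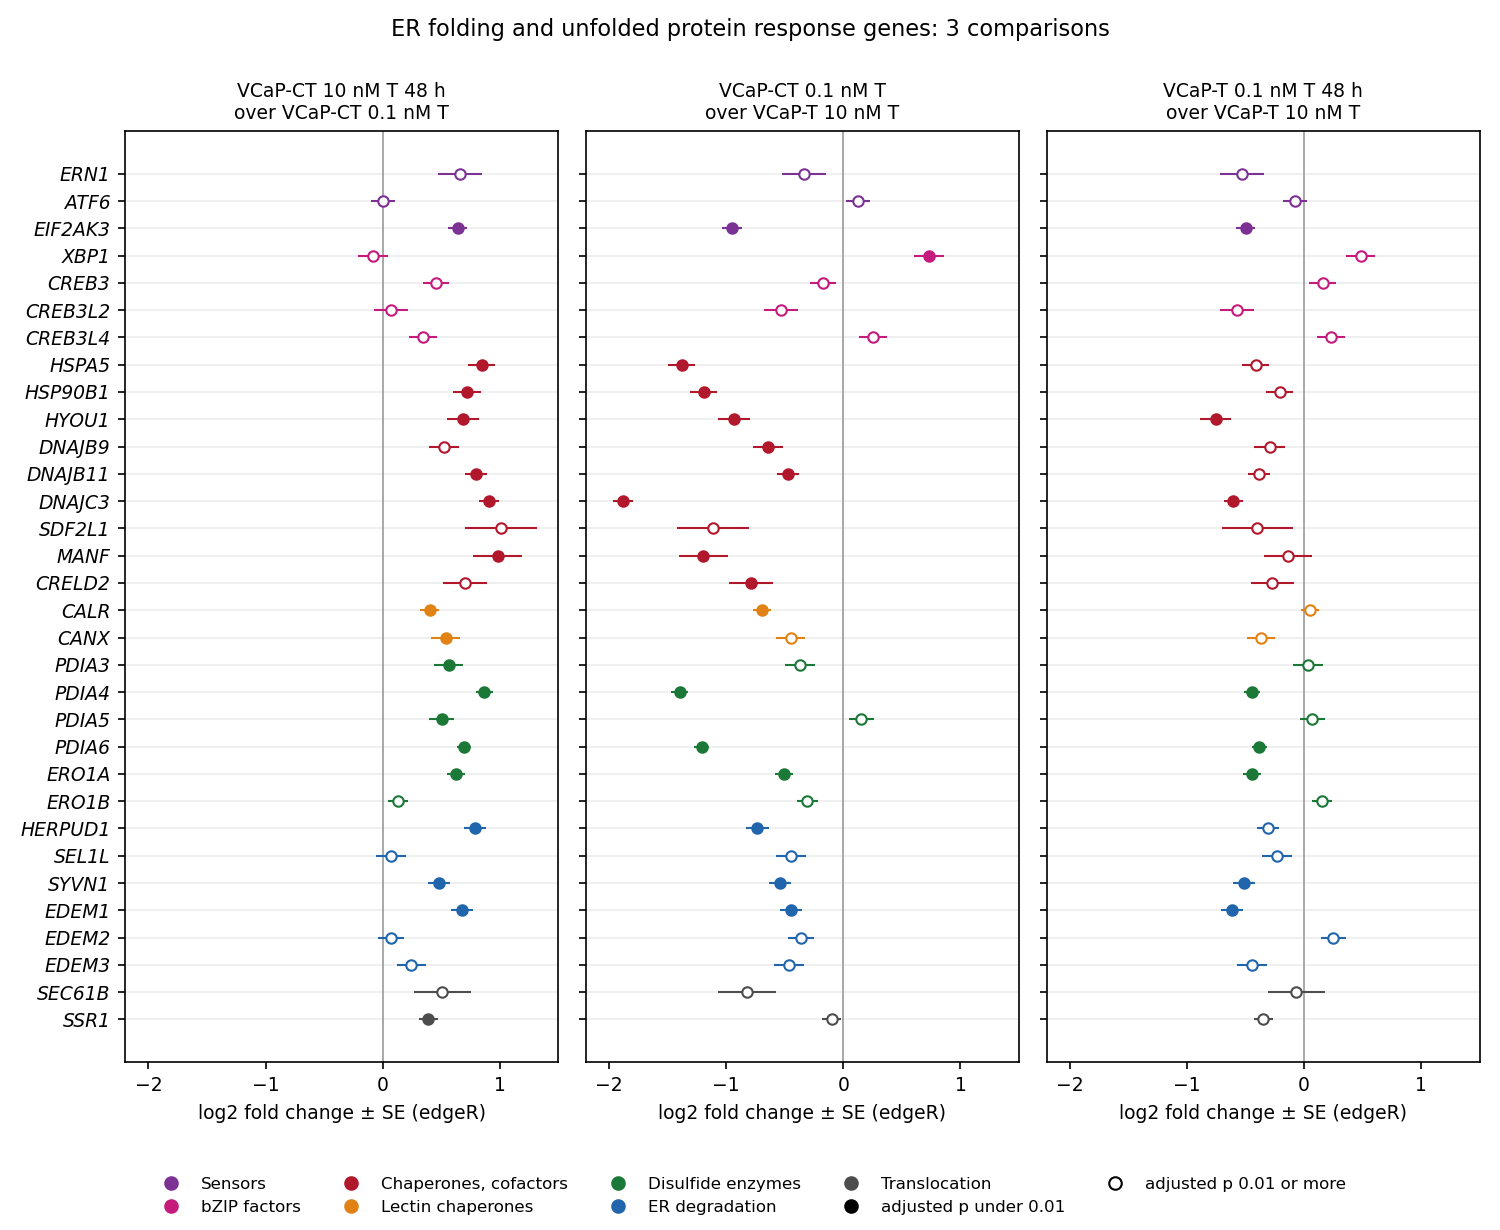
Log2 fold change (x axis, points, with bars of 1 SE) of each of the 32 genes (rows, grouped by role) in rechallenged VCaP-CT over VCaP-CT at 0.1 nM T, in VCaP-CT at 0.1 nM T over VCaP-T at 10 nM T, and in depleted VCaP-T over VCaP-T at 10 nM T, with filled points for an adjusted p under 0.01 from edgeR. The 18 filled points of the rechallenge panel lie right of 0, 16 of the 17 filled points of the panel of lines lie left of 0, with XBP1 on the right, and the 8 filled points of the depletion panel lie left of 0.

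In rechallenged VCaP-CT, all 3 libraries were above all 3 of VCaP-CT at 0.1 nM T for 28 of the 32 genes, below them for 1 and overlapping for 3, where 27.4% of all genes were above and 28.3% below. In VCaP-CT at 0.1 nM T, all libraries were below those of VCaP-T at 10 nM T for 28 genes and above them for 4, against 34.4% and 34.6% of all genes. In depleted VCaP-T, they were below those of VCaP-T at 10 nM T for 17 genes, above for 3 and overlapping for 12, against 17.6% below and 20.4% above over all genes. Fragments of the 32 genes together made up 1.35% to 1.42% of each library in rechallenged VCaP-CT, 0.999% to 1.01% in VCaP-CT at 0.1 nM T, 1.44% to 1.49% in depleted VCaP-T and 1.71% to 1.75% in VCaP-T at 10 nM T. These shares did not overlap between any of the 4 groups. They weigh abundant genes most. In VCaP-T at 10 nM T, HSP90B1, CANX, CALR and HSPA5 had mean normalized counts of 155904 to 74937, and PDIA4, the next gene, had 27149. Counts are relative to each library's total, so a change in RNA per cell cannot be told apart from a change in the other transcripts, nor fewer cells with a transcript from less of it per cell.

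Among the sensors, only EIF2AK3 was called with all libraries, and ERN1 was called as well without depleted replicate 2. EIF2AK3 (ENSG00000172071.11, chromosome 2, 88556741 to 88627576 of GRCh38, minus strand), which codes for PERK, had 1543, 1563 and 1494 normalized counts in the rechallenged VCaP-CT libraries, 971, 998 and 982 in VCaP-CT at 0.1 nM T, 1479.8, 1210.1 and 1343 in depleted VCaP-T and 1838, 1846 and 2018 in VCaP-T at 10 nM T. Normalized counts are counts divided by the TMM-scaled library size and multiplied by the mean of those sizes, and they are listed in the order of replicates 1, 2 and 3. No library of VCaP-CT at 0.1 nM T reached the lowest library of another group. EIF2AK3 rose on rechallenge (log2 fold change 0.64 with an SE of 0.08, adjusted p = 0.000154 by edgeR), fell on depletion (log2 fold change -0.50, adjusted p = 0.00137, edgeR) and was lower between the lines (log2 fold change -0.95, adjusted p = 2.21e-06, edgeR). ERN1, the gene of IRE1, had 1547, 1649 and 1710.2 normalized counts in rechallenged VCaP-CT, 1005, 1054 and 1044 in VCaP-CT at 0.1 nM T, 1145, 561 and 991 in depleted VCaP-T and 1251, 1356 and 1304 in VCaP-T at 10 nM T. Depleted replicate 2 was the lowest of the 12 libraries for ERN1, whose exons are 10.9 kb long, and the log2 fold change on rechallenge was 0.66 (adjusted p = 0.0224, edgeR). Without that library it was 0.66 (adjusted p = 3.99e-08, edgeR) on rechallenge, -0.29 (adjusted p = 0.00243, edgeR) on depletion and -0.33 (adjusted p = 9.25e-05, edgeR) between the lines. ATF6 had log2 fold changes between -0.07 and 0.20 in the 5 pairwise comparisons, none with an adjusted p under 0.01.

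The next 4 genes were grouped as transcription factors of the bZIP class, with ATF6 kept among the sensors. XBP1 was the only gene of the 32 called higher between the lines with all libraries, and CREB3L4 and PDIA5 joined it without depleted replicate 2. XBP1 (ENSG00000100219.16, chromosome 22, 28794555 to 28800597 of GRCh38, minus strand) had 25687, 24214 and 24458 normalized counts in rechallenged VCaP-CT, 26102, 26526 and 26135 in VCaP-CT at 0.1 nM T, 18737, 28060.3 and 19531 in depleted VCaP-T and 15673, 15639 and 16149 in VCaP-T at 10 nM T. Every library of the other 3 groups was above every library of VCaP-T at 10 nM T. XBP1 was higher in VCaP-CT at 0.1 nM T than in VCaP-T at 10 nM T (log2 fold change 0.73 with an SE of 0.13, adjusted p = 0.000568 by edgeR) and higher in rechallenged VCaP-CT than in VCaP-T at 10 nM T (log2 fold change 0.65, adjusted p = 0.00161, edgeR). Its log2 fold change on rechallenge was -0.08 (adjusted p = 0.69, edgeR). On depletion it was 0.48 (adjusted p = 0.0187, edgeR), and without depleted replicate 2 XBP1 rose, at 0.27 (adjusted p = 2.61e-05, edgeR).

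CREB3L4, a factor of the ER membrane that is abundant in prostate, had 11151, 10651 and 11226 normalized counts in rechallenged VCaP-CT, 8778, 8738 and 8493 in VCaP-CT at 0.1 nM T, 7344, 10685 and 7546 in depleted VCaP-T and 7223, 7157 and 7477 in VCaP-T at 10 nM T. With all libraries it was called only in rechallenged VCaP-CT over VCaP-T at 10 nM T, where it was higher (log2 fold change 0.60, adjusted p = 0.00202, edgeR). The related CREB3 had a log2 fold change of 0.45 (adjusted p = 0.0107, edgeR) on rechallenge, or 0.46 (adjusted p = 3.95e-07, edgeR) without depleted replicate 2. CREB3L2, which raises transcription of secretory pathway genes, had a log2 fold change of -0.58 (adjusted p = 0.0153, edgeR) on depletion and fell by 0.38 on the log2 scale without depleted replicate 2 (adjusted p = 2e-06, edgeR).

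Of the 9 chaperone genes, whose median log2 fold change was 0.80 on rechallenge and -1.12 between the lines, 6 rose on rechallenge, 8 were lower between the lines and 2 fell on depletion. HSPA5 (ENSG00000044574.7, chromosome 9, 125234853 to 125241330 of GRCh38, minus strand) codes for BiP, the main ER chaperone of the HSP70 family, which also holds the sensors inactive. It had 54497, 50135 and 50517 normalized counts in rechallenged VCaP-CT, 28547, 29080.4 and 28751 in VCaP-CT at 0.1 nM T, 48681, 69169 and 50934 in depleted VCaP-T and 75860.2, 74542 and 74409.8 in VCaP-T at 10 nM T. Only rechallenged VCaP-CT and depleted VCaP-T overlapped, and depleted replicate 2 was the highest of its group. HSPA5 rose on rechallenge (log2 fold change 0.84 with an SE of 0.12, adjusted p = 0.000237 by edgeR), was lower between the lines (log2 fold change -1.38, adjusted p = 1.73e-06, edgeR) and had a log2 fold change of -0.41 (adjusted p = 0.0247, edgeR) on depletion, or -0.59 (adjusted p = 3.4e-09, edgeR) without depleted replicate 2.

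HSP90B1 (ENSG00000166598.14, chromosome 12, 103930107 to 103953645 of GRCh38, plus strand) codes for GRP94, the HSP90 of the ER. It had 118998, 114562 and 103368 normalized counts in rechallenged VCaP-CT, 66753, 69332 and 68318 in VCaP-CT at 0.1 nM T, 117924, 164369 and 122782 in depleted VCaP-T and 151433, 154564 and 161715 in VCaP-T at 10 nM T. Depleted replicate 2 lay above all VCaP-T libraries at 10 nM T and the other depleted libraries lay below them. HSP90B1 rose on rechallenge (log2 fold change 0.72, adjusted p = 0.000789, edgeR) and was lower between the lines (log2 fold change -1.19, adjusted p = 6.5e-06, edgeR), and on depletion its log2 fold change was -0.21 (adjusted p = 0.226, edgeR), or -0.38 (adjusted p = 1.03e-05, edgeR) without replicate 2.

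DNAJC3 (ENSG00000102580.14, chromosome 13, 95677139 to 95794989 of GRCh38, plus strand), a co-chaperone of BiP also known as an inhibitor of eIF2 alpha kinases, had the lowest fold change between the lines of the 32 genes. It had 1491, 1562 and 1369 normalized counts in rechallenged VCaP-CT, 762, 768 and 825 in VCaP-CT at 0.1 nM T, 1869, 1781 and 2048 in depleted VCaP-T and 2769.8, 2869 and 3030.5 in VCaP-T at 10 nM T. The 4 groups did not overlap, in the order VCaP-CT at 0.1 nM T, rechallenged VCaP-CT, depleted VCaP-T and VCaP-T at 10 nM T. The log2 fold change was 0.91 (adjusted p = 1.03e-05, edgeR) on rechallenge, -1.88 (adjusted p = 6.68e-09, edgeR) between the lines and -0.61 (adjusted p = 0.000346, edgeR) on depletion.

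HYOU1 (ENSG00000149428.18, chromosome 11, 119044189 to 119057202 of GRCh38, minus strand), an ER chaperone of the HSP110 class that releases nucleotide from BiP, had 13944, 13897 and 14967 normalized counts in rechallenged VCaP-CT, 8991, 8790.1 and 8824 in VCaP-CT at 0.1 nM T, 11209.5, 7392 and 11470.3 in depleted VCaP-T and 17340.5, 16604 and 16859 in VCaP-T at 10 nM T. It fell on depletion (log2 fold change -0.76 with an SE of 0.13, adjusted p = 0.00214 by edgeR), and depleted replicate 2 was the lowest of its group. Its fold change was the lowest of the 32 genes with all libraries, but without replicate 2 it was -0.58, and SDF2L1, CRELD2 and HSPA5 were lower. It rose on rechallenge (log2 fold change 0.69, adjusted p = 0.00266, edgeR) and was lower between the lines (log2 fold change -0.93, adjusted p = 0.000133, edgeR).

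MANF, a small secreted protein induced by ER stress, had 4458, 3994 and 4007 normalized counts in rechallenged VCaP-CT, 2135, 2090.1 and 2078 in VCaP-CT at 0.1 nM T, 3249, 6504 and 3361 in depleted VCaP-T and 4874, 4741 and 4833 in VCaP-T at 10 nM T. It rose on rechallenge (log2 fold change 0.98, adjusted p = 0.00455, edgeR) and was lower between the lines (log2 fold change -1.20, adjusted p = 0.000586, edgeR), while on depletion its log2 fold change was -0.14 (adjusted p = 0.653, edgeR) with all libraries and -0.55 (adjusted p = 1.35e-07, edgeR) without replicate 2. SDF2L1, which works with BiP and ERDJ3, had 1261, 1042 and 1338 normalized counts in rechallenged VCaP-CT, 573, 614 and 618 in VCaP-CT at 0.1 nM T, 588, 1671 and 723 in depleted VCaP-T and 1498, 1380.5 and 1039 in VCaP-T at 10 nM T. It had the highest log2 fold change of the 32 on rechallenge with a wide error and was not called (log2 fold change 1.01 with an SE of 0.31, adjusted p = 0.0317 by edgeR). Without depleted replicate 2 SDF2L1 was called, at 1.01 with an SE of 0.12 (adjusted p = 9.01e-07, edgeR). Both MANF and SDF2L1 have short exon lengths, and in both depleted replicate 2 exceeded every VCaP-T library at 10 nM T.

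Of the other chaperone genes, DNAJB11 (ERDJ3), a co-chaperone of BiP, rose on rechallenge by 0.80 (adjusted p = 6.97e-05, edgeR) on the log2 scale and was lower between the lines (log2 fold change -0.47, adjusted p = 0.00138, edgeR). DNAJB9 (ERDJ4), which keeps IRE1 inactive through BiP, was lower between the lines (log2 fold change -0.64, adjusted p = 0.00164, edgeR), with 0.52 (adjusted p = 0.0116, edgeR) on rechallenge. CRELD2, a disulfide isomerase-like protein induced by ER stress, was lower between the lines (log2 fold change -0.79, adjusted p = 0.00469, edgeR), with 0.70 (adjusted p = 0.0169, edgeR) on rechallenge.

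**Figure D2:**
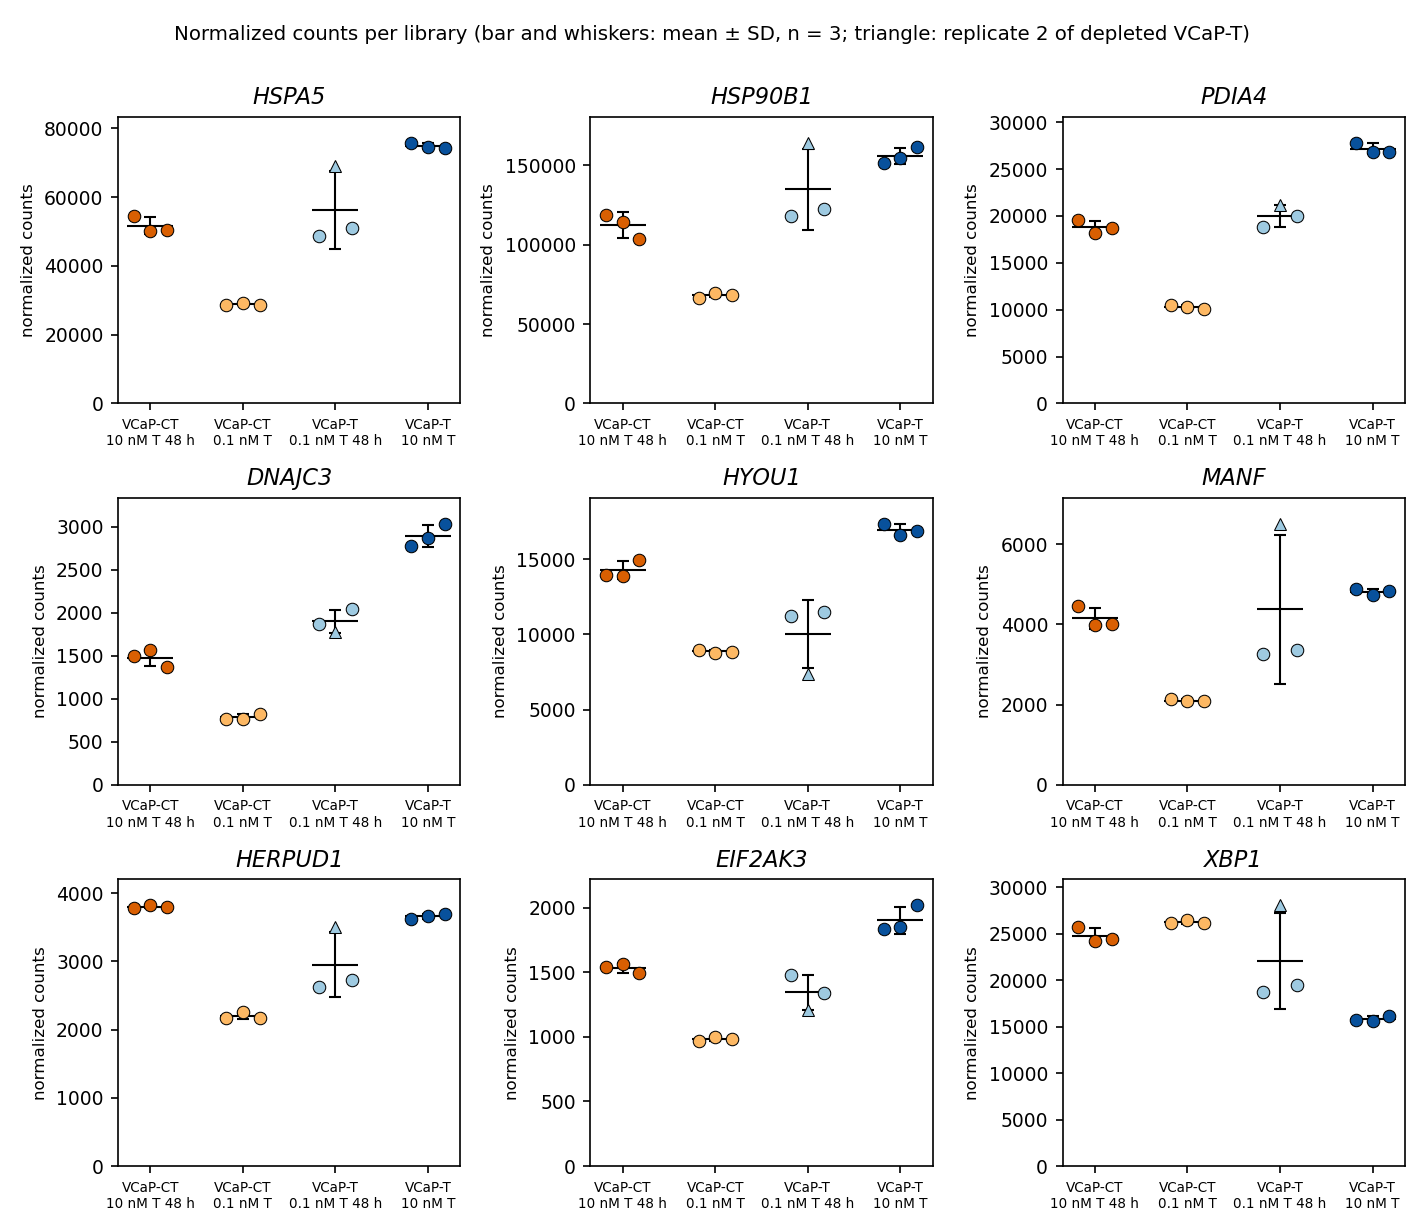
Normalized counts (y axis, TMM-scaled, linear from 0) of 9 genes, HSPA5, HSP90B1, PDIA4, DNAJC3, HYOU1, MANF, HERPUD1, EIF2AK3 and XBP1, with 1 point for each of the 3 libraries of each group, a triangle for depleted VCaP-T replicate 2 and bars for the group mean and SD. In the first 8 genes the 3 libraries of VCaP-CT at 0.1 nM T are below all libraries of rechallenged VCaP-CT and of VCaP-T at 10 nM T, and in XBP1 they are above those of VCaP-T at 10 nM T.

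Calreticulin (CALR) and calnexin (CANX) are the lectins that hold glycoproteins until they fold. CALR had 71863, 65846 and 67336 normalized counts in rechallenged VCaP-CT, 52661, 51501 and 51158 in VCaP-CT at 0.1 nM T, 80796, 94332 and 84673 in depleted VCaP-T and 85545, 82617 and 82884 in VCaP-T at 10 nM T. It rose on rechallenge (log2 fold change 0.40, adjusted p = 0.00273, edgeR), was lower between the lines (log2 fold change -0.69, adjusted p = 1.97e-05, edgeR) and had a log2 fold change on depletion of 0.05 (adjusted p = 0.68, edgeR), with overlapping libraries, or -0.02 (adjusted p = 0.769, edgeR) without replicate 2. CANX rose on rechallenge (log2 fold change 0.54, adjusted p = 0.00698, edgeR), with -0.45 (adjusted p = 0.0104, edgeR) between the lines and -0.37 (adjusted p = 0.0499, edgeR) on depletion, or -0.21 (adjusted p = 0.000338, edgeR) without replicate 2.

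Of the 6 disulfide genes, 5 rose on rechallenge, 3 were lower between the lines and 3 fell on depletion. PDIA4 (ENSG00000155660.10, chromosome 7, 149003062 to 149028641 of GRCh38, minus strand), a protein disulfide isomerase also called ERP72, had 19514, 18133 and 18762 normalized counts in rechallenged VCaP-CT, 10525, 10259 and 10111 in VCaP-CT at 0.1 nM T, 18770.2, 21123 and 19956 in depleted VCaP-T and 27807, 26865 and 26775 in VCaP-T at 10 nM T. Only rechallenged VCaP-CT and depleted VCaP-T overlapped, and depleted replicate 2 was the highest of its group. PDIA4 rose on rechallenge (log2 fold change 0.87 with an SE of 0.07, adjusted p = 4.35e-06 by edgeR), was lower between the lines (log2 fold change -1.40, adjusted p = 2.08e-08, edgeR) and fell on depletion (log2 fold change -0.44, adjusted p = 0.00105, edgeR). PDIA6, the isomerase that damps IRE1 and PERK, followed the same order, with log2 fold changes of 0.70 (adjusted p = 9.21e-06, edgeR) on rechallenge, -1.21 (adjusted p = 2.48e-08, edgeR) between the lines and -0.38 (adjusted p = 0.00129, edgeR) on depletion. A share of 25.2% of the exon length of PDIA6 overlaps ATP6V1C2, so fragments there were not counted for either gene.

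ERO1A, the oxidase that recharges the isomerases, rose on rechallenge (log2 fold change 0.63, adjusted p = 9.62e-05, edgeR), fell on depletion (-0.45, adjusted p = 0.00173, edgeR) and was lower between the lines (-0.50, adjusted p = 0.000203, edgeR). Its relative ERO1B was the gene of the lowest level per length in 3 of the 4 groups. ERO1B had a log2 fold change of 0.13 (adjusted p = 0.325, edgeR) on rechallenge and was lower in VCaP-CT at 0.1 nM T than in depleted VCaP-T (-0.46, adjusted p = 0.00127, edgeR). PDIA3, the partner of the lectins, rose on rechallenge (log2 fold change 0.56, adjusted p = 0.00679, edgeR). PDIA5 rose on rechallenge as well (0.50, adjusted p = 0.00461, edgeR) and was higher in rechallenged VCaP-CT than in VCaP-T at 10 nM T (0.66, adjusted p = 0.000445, edgeR).

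In the degradation group, HERPUD1, SYVN1 and EDEM1 rose on rechallenge and were lower between the lines, and SEL1L, EDEM2 and EDEM3 did neither by the threshold, though without depleted replicate 2 all 3 were lower between the lines and EDEM3 rose on rechallenge. HERPUD1 (ENSG00000051108.14, chromosome 16, 56932048 to 56944863 of GRCh38, plus strand), an ER membrane protein of the degradation complex, had 3783, 3822 and 3802 normalized counts in rechallenged VCaP-CT, 2164, 2257 and 2177 in VCaP-CT at 0.1 nM T, 2626, 3503 and 2731 in depleted VCaP-T and 3622, 3663 and 3697 in VCaP-T at 10 nM T. The libraries of rechallenged VCaP-CT lay just above those of VCaP-T at 10 nM T, with a log2 fold change between them of 0.05 (adjusted p = 0.693, edgeR), and those of VCaP-CT at 0.1 nM T lay below all others. On rechallenge HERPUD1 rose by 0.79 (adjusted p = 0.000104, edgeR) on the log2 scale, and it was lower between the lines (log2 fold change -0.74, adjusted p = 6.93e-05, edgeR). EDEM1, which hands misfolded glycoproteins to degradation, had 3689, 3941 and 3717 normalized counts in rechallenged VCaP-CT, 2370.3, 2348 and 2377 in VCaP-CT at 0.1 nM T, 2327, 1757 and 2220.4 in depleted VCaP-T and 3154, 3178 and 3321 in VCaP-T at 10 nM T. It rose on rechallenge (log2 fold change 0.68, adjusted p = 0.000275, edgeR), fell on depletion (-0.61, adjusted p = 0.000892, edgeR) and was lower between the lines (-0.44, adjusted p = 0.00236, edgeR).

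SYVN1 codes for HRD1, the ubiquitin ligase of ER degradation. It had a log2 fold change of 0.48 (adjusted p = 0.00255, edgeR) on rechallenge, -0.51 (adjusted p = 0.00244, edgeR) on depletion and -0.54 (adjusted p = 0.000521, edgeR) between the lines. SEL1L, the adaptor of HRD1, had 0.07 (adjusted p = 0.743, edgeR) on rechallenge and -0.45 (adjusted p = 0.0141, edgeR) between the lines. EDEM2, a mannosidase of glycoprotein degradation, was lower in VCaP-CT at 0.1 nM T than in depleted VCaP-T (log2 fold change -0.61, adjusted p = 0.000743, edgeR). EDEM3, of the same family, had -0.45 (adjusted p = 0.027, edgeR) on depletion and was not called, but fell without replicate 2, at -0.30 (adjusted p = 0.00151, edgeR).

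Of the 2 translocation genes, SSR1, of the complex beside the channel, rose on rechallenge (log2 fold change 0.39, adjusted p = 0.00444, edgeR), with -0.35 (adjusted p = 0.0109, edgeR) on depletion, or -0.42 (adjusted p = 2.16e-05, edgeR) without replicate 2. SEC61B, a small subunit of the channel, had 2285, 2075 and 2327 normalized counts in rechallenged VCaP-CT, 1641, 1597 and 1457 in VCaP-CT at 0.1 nM T, 1839, 4165 and 1929 in depleted VCaP-T and 2996, 2795 and 2506 in VCaP-T at 10 nM T. With depleted replicate 2 well above every other library its log2 fold change on depletion was -0.07 (adjusted p = 0.869, edgeR), and without it -0.56 (adjusted p = 7.78e-06, edgeR).

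Per length, the genes spanned a wide range of levels. Levels per length are FPKM values (fragments per kilobase of exon, relative to library size) scaled by TMM. The highest in VCaP-CT were CALR at 715 ± 32.8 in rechallenged cells and 541 ± 8.24 at 0.1 nM T, and HSP90B1 at 679 ± 48.7 in rechallenged cells and 412 ± 7.85 at 0.1 nM T (SD, n = 3 libraries). HSP90B1 had 816 ± 154 in depleted VCaP-T and 942 ± 31.9 in VCaP-T at 10 nM T, and CALR had 905 ± 72.9 in depleted VCaP-T and 875 ± 16.9 in VCaP-T at 10 nM T. HSP90B1 and CALR overlapped in rechallenged VCaP-CT and in depleted VCaP-T, and did not overlap in the other groups. XBP1 was 5th in rechallenged VCaP-CT (232 ± 7.40), 4th in VCaP-CT at 0.1 nM T (246 ± 2.21), 5th in depleted VCaP-T (207 ± 48.4) and 7th in VCaP-T at 10 nM T (148 ± 2.67). At 0.1 nM T VCaP-CT thus held more XBP1 than HSPA5 per length (209 ± 1.95), with no overlap between libraries, and in VCaP-T at 10 nM T HSPA5 was the higher of the pair (544 ± 5.82). The lowest levels were those of ERN1 and ERO1B, between 1.87 and 4.27 FPKM in every group.

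**Figure D3:**
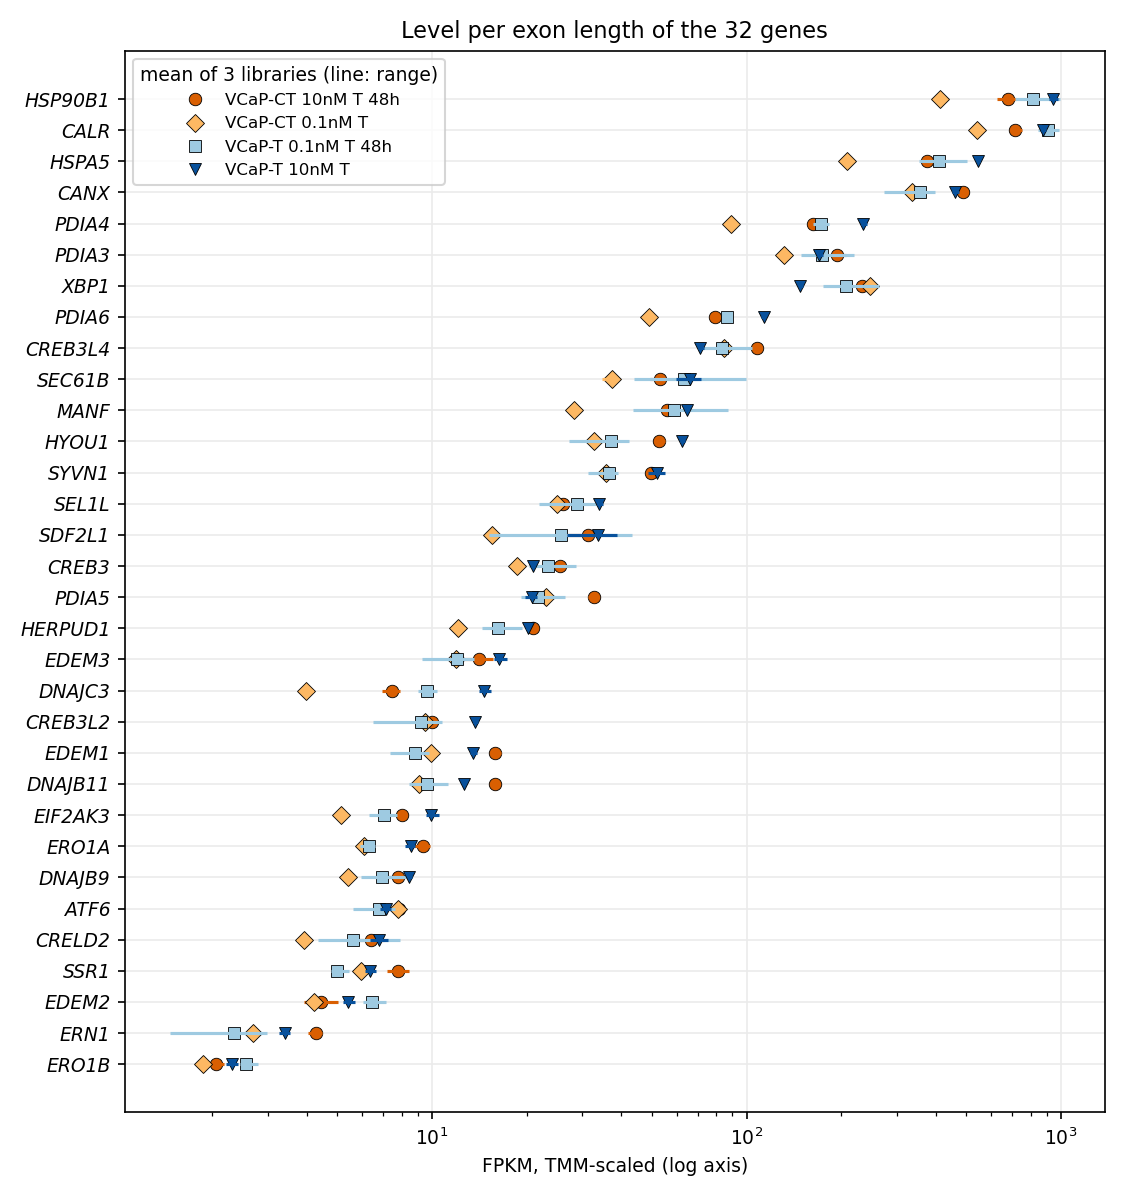
Mean level of each of the 32 genes (rows) in FPKM with TMM scaling (x axis, log scale), with 1 marker for each of the 4 groups. The genes run from ERO1B and ERN1, under 5 FPKM in every group, to HSP90B1 and CALR, at 412 FPKM or more in every group, and for most genes the marker of VCaP-CT at 0.1 nM T is the lowest.

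Short sequences that XBP1 and ATF6 are known to bind were found in promoters of these genes, and they are printed because HSPA5 and XBP1 share one while their fold changes had opposite signs between the lines. The ER stress response element (ERSE) was searched as CCAAT, the box of NF-Y, then 9 bases of any kind, then CCACG, the box of ATF6 or XBP1. ERSE-II was searched as ATTGG, 1 base of any kind and CCACG. Promoters of 300 bases, 250 before the RefSeq start and 50 from it on, were taken from RefSeq on GRCh38.p14 and searched on both strands; 31 of the 32 genes had one, and PDIA3 was the exception. Matches lay in 10 of 31 promoters (32.3%), against 46 of all 35116 promoters (0.131%). ERSE-II and ERSE do not overlap in any of them. These elements were first described in genes such as HSPA5, so that share is no finding of these data. Each match is printed with 6 bases on either side, in the direction that reads as the motif, with the fixed letters of the motif in capitals.
XBP1 ERSE (chr22:28800597-28800627, minus strand): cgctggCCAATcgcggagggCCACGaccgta
HSPA5 ERSE (chr9:125241385-125241415, minus strand): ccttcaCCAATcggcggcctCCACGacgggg
HSP90B1 ERSE (chr12:103930210-103930240, plus strand): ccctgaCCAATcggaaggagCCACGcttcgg
HSP90B1 ERSE (chr12:103930315-103930345, minus strand): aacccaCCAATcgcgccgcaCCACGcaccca
HYOU1 ERSE-II (chr11:119057374-119057396, plus strand): cctgggATTGGaCCACGtcacgg
HYOU1 ERSE-II (chr11:119057268-119057290, plus strand): gtactcATTGGaCCACGtcccag
SDF2L1 ERSE-II (chr22:21642108-21642130, minus strand): gttttgATTGGtCCACGcttccg
CRELD2 ERSE (chr22:49918548-49918578, minus strand): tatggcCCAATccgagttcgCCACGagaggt
CALR ERSE (chr19:12938378-12938408, minus strand): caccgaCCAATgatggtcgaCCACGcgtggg
CANX ERSE (chr5:179698772-179698802, plus strand): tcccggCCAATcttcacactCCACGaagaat
ERO1B ERSE (chr1:236282177-236282207, plus strand): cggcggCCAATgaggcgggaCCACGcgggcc
HERPUD1 ERSE-II (chr16:56932019-56932041, plus strand): acgccgATTGGgCCACGttggga
Matches were found in XBP1, in the chaperone genes HSPA5, HSP90B1, HYOU1, SDF2L1 and CRELD2, in both lectin genes, in ERO1B and in HERPUD1.

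HSPA5 and XBP1 are shown in full for the place of the element in the promoter. In both, the 300 bases are on the minus strand, the first 250 bases lie before the transcript start, and the capitals are the fixed letters of ERSE.
HSPA5 (chr9:125241294-125241593): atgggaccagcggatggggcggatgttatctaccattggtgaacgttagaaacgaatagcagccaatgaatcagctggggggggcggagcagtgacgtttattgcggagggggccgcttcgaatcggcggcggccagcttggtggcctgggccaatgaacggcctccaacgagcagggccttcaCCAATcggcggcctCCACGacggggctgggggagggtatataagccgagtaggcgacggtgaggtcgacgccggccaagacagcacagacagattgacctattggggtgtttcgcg
XBP1 (chr22:28800520-28800819): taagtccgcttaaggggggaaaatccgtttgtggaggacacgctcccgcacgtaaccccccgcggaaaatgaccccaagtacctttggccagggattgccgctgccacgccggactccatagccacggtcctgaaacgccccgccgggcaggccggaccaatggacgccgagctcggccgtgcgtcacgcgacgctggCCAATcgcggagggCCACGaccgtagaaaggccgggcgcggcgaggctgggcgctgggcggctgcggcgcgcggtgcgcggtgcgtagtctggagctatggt
The element ran from base -66 to base -48 in HSPA5 and from base -52 to base -34 in XBP1, counting the start base as 0. HSPA5 was lower and XBP1 higher in VCaP-CT at 0.1 nM T than in VCaP-T at 10 nM T. Of the 10 genes with either element, 6 rose on rechallenge, 6 were lower and 1 was higher between the lines, and 1 fell on depletion. Of the 21 searched genes without one, 11 rose on rechallenge, 10 were lower between the lines and 7 fell on depletion. The third element searched, UPRE (TGACGTGG), was found in HYOU1 alone, over its distal ERSE-II, and in 256 of all promoters (0.729%). An androgen response element was searched as GNACA, 3 bases of any kind and TGTNC, where N is any base. Exact matches to it lay in 0 of the 31 promoters and in 137 of all promoters (0.39%).

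The lines were also compared at the same T level of 10 nM, where the share of the 32 genes called was near that of all genes. VCaP-CT had been at 10 nM T for 48 h, while for VCaP-T it was the usual medium. Line and time at that T level differ together and cannot be told apart. In rechallenged VCaP-CT over VCaP-T at 10 nM T, 5 genes were lower (DNAJC3, HSP90B1, HSPA5, PDIA4 and PDIA6) and 3 were higher (XBP1, CREB3L4 and PDIA5), while 13.2% of all genes were lower and 12.0% higher. The median log2 fold change of the 32 was -0.11, against 0.00 over all genes. With any 1 VCaP-T library at 10 nM T, or rechallenged replicate 2 or 3, left out, 3 genes were lower, and without depleted VCaP-T replicate 2, 14 were lower and 9 higher, while 23.2% of all genes were lower and 24.7% higher. All 5 lower genes were also lower between the lines in their usual media, a comparison with the same VCaP-T libraries. DNAJC3 had 1474 ± 97.6 normalized counts in rechallenged VCaP-CT and 2889.9 ± 132 in VCaP-T at 10 nM T (log2 fold change -0.97, adjusted p = 2.35e-06, edgeR), and HSPA5 had 51716 ± 2416 in rechallenged VCaP-CT and 74937 ± 802 in VCaP-T at 10 nM T (log2 fold change -0.54, adjusted p = 0.00302, edgeR). The other 11 genes that were lower between the lines had no call here, with DNAJB11 at 0.33 (adjusted p = 0.0151, edgeR) and CALR at -0.29 (adjusted p = 0.0111, edgeR) nearest to the threshold together with EIF2AK3 at -0.31 (adjusted p = 0.0104, edgeR).

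At 0.1 nM T, 11 genes were lower in VCaP-CT than in depleted VCaP-T and 0 were higher, while 16.4% of all genes were lower and 13% higher. Here 0.1 nM T was the usual medium of VCaP-CT and lasted 48 h for VCaP-T, so line and time again differ together. Of the 32, 1 had an unadjusted p under 0.05 in the higher direction, and DESeq2 called 0 higher. The 11 were CALR, DNAJC3, EDEM2, EIF2AK3, ERO1B, HERPUD1, HSP90B1, HSPA5, MANF, PDIA4 and PDIA6. DNAJC3 had the lowest log2 fold change, -1.27 (adjusted p = 2.04e-07, edgeR), and MANF was next at -1.06 (adjusted p = 0.00146, edgeR). When that group's replicate 2 was left out MANF was at -0.65 (adjusted p = 3.33e-09, edgeR), and PDIA4, HSP90B1, PDIA6 and HSPA5 were lower than it. Without depleted replicate 2, 17 genes were lower and 4 higher, while 24.4% of all genes were lower and 23.2% higher, and the 4 were XBP1, SSR1, PDIA5 and CREB3L4. EDEM1, HYOU1, SYVN1 and ERO1A, which fell on depletion, had log2 fold changes between -0.18 and 0.17 at 0.1 nM T and were not called. Of these HYOU1 was called without replicate 2, at -0.35 (adjusted p = 9.42e-07, edgeR).

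With the fold and count thresholds of the study added (log2 fold changes beyond 1 in either direction and medians more than 13 normalized counts apart), 6 of the 32 genes were lower between the lines, DNAJC3, HSP90B1, HSPA5, MANF, PDIA4 and PDIA6, and 0 were higher, while 7.06% of all genes were lower and 5.61% higher. At 0.1 nM T DNAJC3 and MANF were lower in VCaP-CT than in depleted VCaP-T by these thresholds and 0 were higher, while 8.68% of all genes were lower and 3.62% higher. No gene of the 32 met them on rechallenge (1.83% of all genes rose and 3.30% fell), on depletion (2.46% rose and 0.678% fell) or in rechallenged VCaP-CT over VCaP-T at 10 nM T (3.17% higher and 7.08% lower), where the counts without the fold and median thresholds are those given above. An alternative chosen after seeing the data left out depleted replicate 2 for these thresholds too. SDF2L1 then met them on rechallenge, with 1 gene of the 32 risen and 0 fallen (1.98% of all genes rose and 3.84% fell), and it joined the 6 genes lower between the lines (7.49% of all genes lower and 5.97% higher). At 0.1 nM T DNAJC3 met them and MANF did not (9.10% lower and 3.46% higher), and 0 met them on depletion (2.98% rose and 0.677% fell) or at 10 nM T (3.50% higher and 7.74% lower).

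The log2 ratio of 10 nM T over 0.1 nM T, called the response, was compared between the lines directly, as that of VCaP-CT minus that of VCaP-T. In VCaP-CT it came from adding T for 48 h, and in VCaP-T from withdrawing T for 48 h. Line and direction of the switch thus differ together and cannot be told apart. No gene of the 32 was called in either direction, while 0.804% of all genes had a higher and 0.162% a lower response in VCaP-CT. At an unadjusted p under 0.05 there were 15 with a higher and 1 with a lower response, and DESeq2 called 3 higher (CALR, PDIA4 and PDIA6) and 0 lower. Counts over all genes at that p and by DESeq2 are not given here. The difference was positive for 26 of the 32, with a median of 0.32, and for 9856 of all 19162 genes tested, with a median of 0.01. Genes are not independent replicates, so these signs were not tested. PDIA4 came nearest, at 0.42 (adjusted p = 0.0472, edgeR), followed by CALR at 0.45 (adjusted p = 0.0545, edgeR). Without depleted replicate 2, 14 genes had a higher response in VCaP-CT and 1, CREB3L2, a lower one, while 5.62% of all genes were higher and 1.77% lower. The differences for HSPA5 and CALR were then 0.26 (adjusted p = 0.00387, edgeR) and 0.38 (adjusted p = 0.000103, edgeR).

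The differences of depleted VCaP-T replicate 2 from its group went in part with the exon length of the genes. Over the 32 genes, the log2 level in replicate 2 minus the mean of replicates 1 and 3 was 1.33 for SDF2L1, whose exons are 1.1 kb long, 1.14 for SEC61B and 0.97 for MANF, and it was -0.91 for ERN1 at 10.9 kb. SSR1, the longest at 11.3 kb, went against this at 0.19. The correlation with log2 exon length was -0.80 (Pearson) and -0.80 (Spearman) over the 32 genes, and -0.32 and -0.39 over the 19162 genes tested. These correlations are across genes within 1 library set against the rest of its group, and genes are not independent replicates. In the 9 libraries of the other groups the same Pearson correlation over all genes lay between -0.039 and 0.064, and the SD of the difference over the 32 genes was 0.0257 to 0.121, against 0.555 in depleted replicate 2. Over the 32 genes alone the Pearson correlation in those 9 libraries lay between -0.66 and 0.60, so a correlation with length over these genes was not particular to replicate 2, while the size of the differences was larger in it. PDIA6 and ERO1B lay within 0.1 of the other replicates.

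**Figure D4:**
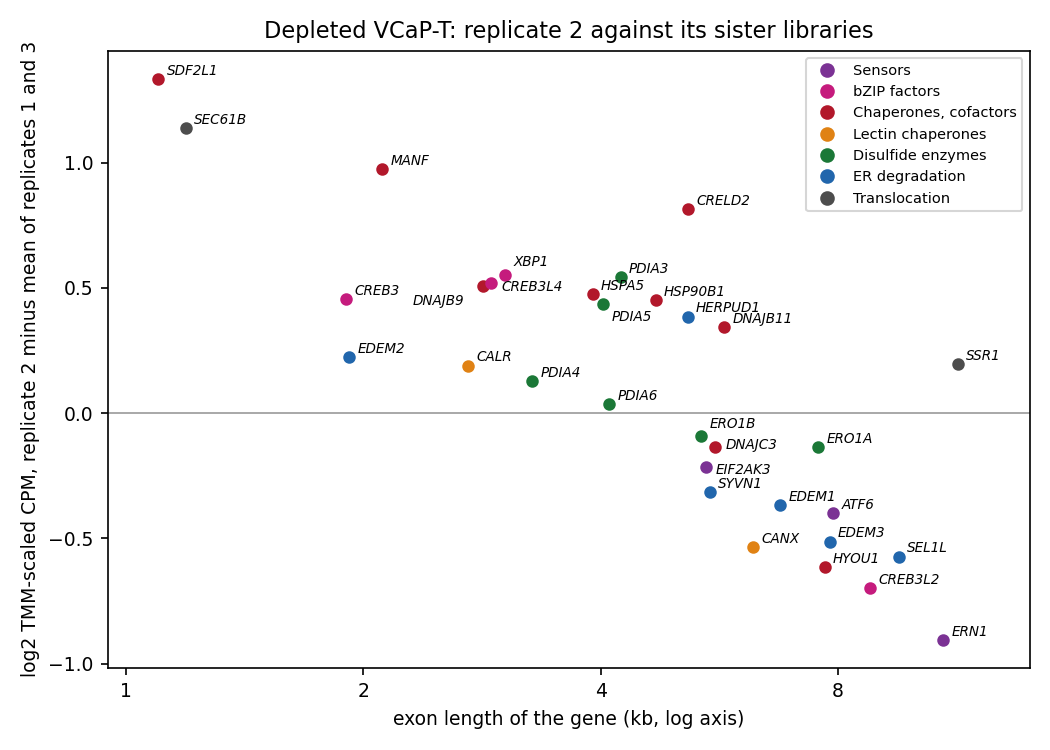
Log2 level in depleted VCaP-T replicate 2 minus the mean of replicates 1 and 3 (y axis) against exon length in kb (x axis, log scale), with 1 point for each of the 32 genes. SDF2L1 and SEC61B at the short end lie above 1, at 1.33 and 1.14, and ERN1 near the long end lies at -0.91.

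**Figure D5:**
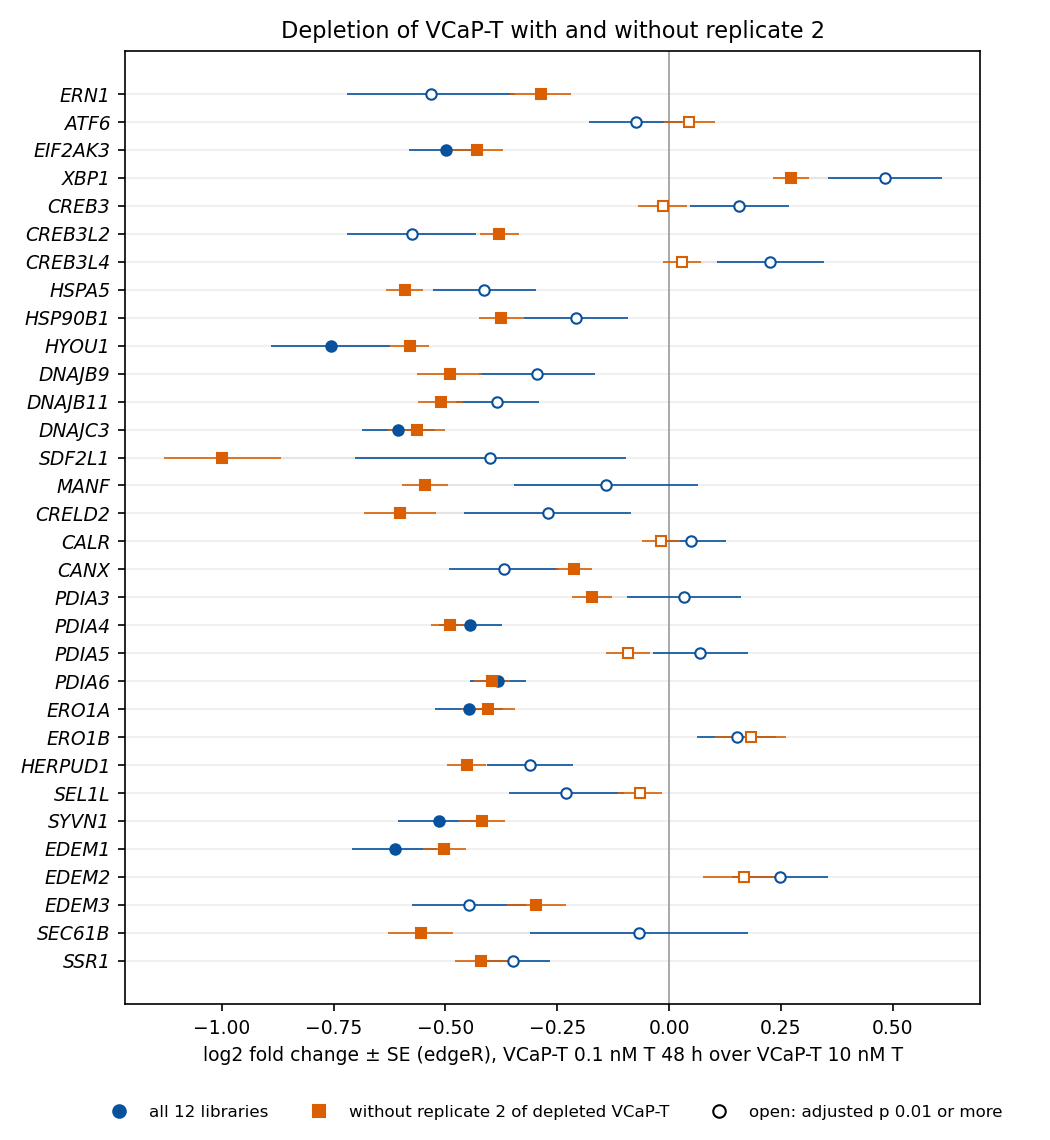
Log2 fold change of each gene on depletion of VCaP-T, with all 12 libraries in the model and without depleted VCaP-T replicate 2. SDF2L1 lies at -0.40 with all libraries and at -1.0 without replicate 2, and 23 genes pass an adjusted p under 0.01 in the falling direction without it, against 8 with it.

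In a wider list of 103 genes of the same pathways, 97 passed the filter. On rechallenge 33 of the 97 rose and 2 fell (7.07% and 7.19% of all genes), between the lines 27 were lower and 3 higher (15.7% and 14.8%), and on depletion 11 fell and 0 rose (3.83% and 6.15%). With depleted replicate 2 left out, 61 rose and 5 fell on rechallenge (19.0% and 17.6% of all genes). Between the lines 56 were then lower and 14 higher (26.7% and 26.7%). In the rising direction on depletion 13 of the 97 had an unadjusted p under 0.05 and DESeq2 called 2. Without depleted replicate 2 edgeR called 41 as fallen and 7 as risen on depletion (12.6% and 14.4% of all genes). SEC61A1, the pore of the channel, rose on rechallenge by 0.64 (adjusted p = 2.84e-05 by edgeR, SE 0.07) on the log2 scale and had a log2 fold change of -0.46 (adjusted p = 0.000528 by edgeR, SE 0.07) on depletion. SPCS3, a subunit of the signal peptidase, had 0.68 (adjusted p = 4.28e-05 by edgeR, SE 0.07) on rechallenge and -0.58 (adjusted p = 0.00023 by edgeR, SE 0.07) on depletion. RPN2, of the complex that attaches glycans to new proteins, rose on rechallenge (0.57, adjusted p = 6.34e-05 by edgeR, SE 0.07), and PPP1R15B, which brings a phosphatase to eIF2 alpha, fell on depletion (-0.53, adjusted p = 0.000428 by edgeR, SE 0.07). The genes that fell on rechallenge were FKBP10, a collagen-folding prolyl isomerase (-0.56, adjusted p = 0.00132 by edgeR, SE 0.10), and PDIA2, a disulfide isomerase best known from pancreas (-0.93, adjusted p = 0.00375 by edgeR, SE 0.19).

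Between the lines, PDIA2 was higher in VCaP-CT at 0.1 nM T than in VCaP-T at 10 nM T (1.70, adjusted p = 2.44e-05 by edgeR, SE 0.20), as were the thioredoxin-like genes TMX3 (0.60, adjusted p = 0.000121 by edgeR, SE 0.08) and TXNDC11 (0.32, adjusted p = 0.00253 by edgeR, SE 0.07). The lowest adjusted p-values among the lower genes were those of DNAJC10, a reductase that helps degradation (-0.96, adjusted p = 4.73e-06 by edgeR, SE 0.09), PPIB, the cyclophilin of the ER (-0.99, adjusted p = 6.51e-06 by edgeR, SE 0.10), and TMBIM6, an ER membrane protein that curbs cell death (-0.65, adjusted p = 7.46e-06 by edgeR, SE 0.07). In rechallenged VCaP-CT over VCaP-T at 10 nM T, 17 of the 97 were higher and 6 lower (12.0% and 13.2% of all genes). TXNDC11, TMX3 and the translocation gene SEC62 led the higher genes, and TUSC3, of the glycan-attaching complex, FKBP9 and TMBIM6 led the lower ones. Without depleted replicate 2, 39 were higher and 21 lower (24.7% and 23.2% of all genes). In VCaP-CT at 0.1 nM T over depleted VCaP-T, 7 were higher, led by TMX3, the ubiquitin-conjugating gene UBE2G2 and PDIA2, and 19 were lower, led by TMBIM6, TUSC3 and the lectin gene OS9. Over all genes 13% were higher and 16.4% lower. Without depleted replicate 2 the counts among the 97 were 21 higher and 30 lower (23.2% and 24.4% of all genes). EdgeR called 0 of the 97 for a difference in response, with 28 higher and 0 lower at an unadjusted p under 0.05, and DESeq2 called 5 higher and 0 lower. Without depleted replicate 2 edgeR called 19 higher and 0 lower (5.62% and 1.77% of all genes).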

How the data were processed

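RNA of 12 libraries, 3 for each of the 4 groups that the labels give, was measured. The count values were deposited by the authors as whole fragments per gene, from stranded poly(A) libraries aligned to GRCh38 with STAR 2.5.4b and counted over Gencode exons with featureCounts 1.6.2. Per the file headers, strand was not used, and fragments that map to several places or overlap several genes were left out, which lowers the counts of genes with overlapping neighbours or pseudogenes. Of the 32 genes, 8 share over 10% of their exon length with another gene (EIF2AK3, CREB3, CREB3L4, DNAJB11, PDIA3, PDIA5, PDIA6 and SYVN1), and XBP1, HSPA5, HSP90B1, PDIA3 and SSR1 have pseudogenes by name. The normalized table of the authors, made with DESeq2 1.24.0, was not used (12 columns).

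Counts were fitted in R 4.3.3 with edgeR 4.0.16: filterByExpr, TMM, 1 quasi-likelihood model of the 4 groups without a block, and Benjamini-Hochberg adjustment over 19162 genes. The alternatives were RLE factors, no filter, DESeq2 1.42.0, the replicate block, a fit on the libraries of each comparison alone, and leaving out each library. The fit was tested on simulated data for depletion, rechallenge and the comparison of lines. Of 50 genes changed by each fold, it called 0 at 1.25 times and 5 to 14 at 1.5 times. It called 42 to 43 at 2 times and 49 to 50 at 4 times, so small changes were mostly missed. RefSeq promoters were searched by exact match on both strands. Depth was 30174831 to 40825204 fragments. All 32 genes are accounted for, and of the 103 others the 3 with the smallest adjusted p in each direction are named. The members and lists were chosen with earlier results of these data known.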

Additional observations from a re-analysis of the deposited data

How the results depend on the processing

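Of the 32 genes, counts with an adjusted p under 0.01 by edgeR are given here. With RLE factors no count moved by over 1.5 times, and without the filter only the count risen on depletion did (1). DESeq2 gave 13 fallen and 1 risen on depletion, 5 higher in rechallenged VCaP-CT over VCaP-T at 10 nM T and 3 with a higher response in VCaP-CT. Over all genes DESeq2 called 1277 as fallen and 1483 as risen on depletion, against 733 and 1178 in the main fit. Fits on the libraries of each comparison alone gave 0 fallen on depletion, 27 lower and 3 higher between the lines, 7 lower at 0.1 nM T, and 12 lower and 9 higher at 10 nM T. Over all genes those fits called 81 as fallen on depletion, and 5426 lower and 5065 higher between the lines. The main fit called 733, 3015 and 2842. The cause of these differences was not tested. For the lines at 10 nM T and at 0.1 nM T and for the response, counts over all genes by DESeq2 and by these fits are not given here.

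Leaving out 1 library gave 6 to 23 fallen and 0 to 1 risen on depletion, 10 to 26 risen on rechallenge, 13 to 27 lower and 1 to 3 higher between the lines, 10 to 17 lower and 0 to 4 higher at 0.1 nM T, 3 to 14 lower and 2 to 9 higher at 10 nM T, and 0 to 14 with a higher and 0 to 1 with a lower response in VCaP-CT. Over all genes it gave 324 to 2485 fallen on depletion, 799 to 3735 risen on rechallenge and 2233 to 5244 lower between the lines. It also gave 2422 to 4796 lower at 0.1 nM T, 1918 to 4553 lower at 10 nM T, and 58 to 1104 with a higher response in VCaP-CT. The highest of each range was reached without depleted VCaP-T replicate 2 (1 risen on depletion also without depleted replicate 1), where 77 of 192 tests of a gene newly passed, 0 were lost and 14 changed sign, 2 of them past the threshold without it. PDIA3 had -0.17 on depletion without it, in a range of -0.17 to 0.14, and CREB3L2 had -0.15 in VCaP-CT at 0.1 nM T over depleted VCaP-T, in a range of -0.15 to 0.17.

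With the replicate block, 15 genes rose on rechallenge, 8 fell on depletion, 16 were lower between the lines and 4 lower at 10 nM T. Over all genes the block gave 1054 risen on rechallenge, 475 fallen on depletion and 2685 lower between the lines. Its count over all genes at 10 nM T is not given here. Of 18 pairs of libraries with the same number, 0 had deviations correlated over 0.1 (-0.17 to 0.05), so the number was not taken as a pairing. A gene that missed the threshold is not shown to be unchanged.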

Other observations

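Within the wider list, the arm that acts through eIF2 alpha (8 genes tested) had 4 risen on rechallenge, 3 lower between the lines and 1 fallen on depletion, and its median log2 fold change was 0.57 on rechallenge, -0.36 between the lines and 0.14 on depletion. Of the 16 translocation genes tested, 8 rose on rechallenge, 4 were lower between the lines and 3 fell on depletion. Of the 19 genes of glycan attachment and trimming, 5 rose on rechallenge, 7 were lower between the lines and 3 fell on depletion. Of the 20 further degradation genes, 8 rose on rechallenge, 5 were lower between the lines and 2 fell on depletion, and 6 were higher and 1 lower in rechallenged VCaP-CT than in VCaP-T at 10 nM T. Of the 26 further folding genes, 7 rose and 2 fell on rechallenge, 7 were lower and 3 higher between the lines and 2 fell on depletion. Of the 8 regulator genes, 1 rose on rechallenge and 1 was lower between the lines. Over all genes, 7.07% rose on rechallenge, 15.7% were lower between the lines and 3.83% fell on depletion. All calls are at an adjusted p under 0.01 from edgeR with all 12 libraries.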
